A study of Rattus norvegicus with 12 samples.

Results

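The comparison was of diabetic with non-diabetic rat hearts late after a myocardial infarction, at 14, 28 and 56 days after the coronary artery was tied off. It used 6 of the 12 arrays of the series, 3 diabetic and 3 non-diabetic, chosen by their labelled treatment and day and paired by day. All rats were male Sprague-Dawley rats and had the left anterior descending coronary artery ligated. Diabetic rats had received streptozotocin, a toxin of the insulin-producing beta cells, as 1 intraperitoneal dose of 65 mg/kg at 8 weeks of age, and non-diabetic rats citrate buffer alone; ligation followed 10 weeks later, without control of blood sugar. The tissue was remote zone, left ventricular free wall that lay outside the infarct, so that surviving and not dead muscle was sampled. The diabetic arrays are labelled with ages of 20, 22 and 26 weeks at days 14, 28 and 56, and the non-diabetic arrays with 20, 22 and 22 weeks. At day 56 labelled age and diabetes therefore cannot be told apart, although the protocol of the non-diabetic array gives 8 weeks after ligation. Each array held RNA pooled from 3 rats, so each treatment had 1 sample a day, and the spread behind every p-value below is that of the diabetic minus non-diabetic difference over the 3 days, not a spread between rats. The 6 arrays of sham-operated rats and of days 1 and 7 entered the filter on mean level and the choice of probe set. Otherwise they served only as other pools in which the same genes could be read.

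The adult heart burns mainly fatty acids and keeps the choice between fatty acids and glucose open through a few regulated steps. Entry of pyruvate into the mitochondria's oxidative pathway is blocked by pyruvate dehydrogenase kinases, glucose enters muscle through an insulin-dependent transporter, and many genes of fatty acid use are switched on by the nuclear receptor PPAR alpha when fatty acids are plentiful. Streptozotocin diabetes is a classical model in which insulin is lacking and circulating fatty acids and ketone bodies are high. After an infarct, fibroblasts of the surviving wall can lay down collagen and other matrix, and macrophages enter and leave over weeks.

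Values are intensities on a linear scale, and differences are diabetic minus non-diabetic on the scale of log2(intensity + 16), on which differences of dim genes are understated. In all, 10623 genes passed the filter on mean level, which lay at a log2 value of 5.20 or an intensity of 20.6. The median intensity of the 6 late arrays lay between 28.8 and 31.9. The median difference of all genes was 0.05 at day 14, -0.19 at day 28 and 0.21 at day 56, and differences of single genes are to be read against these shifts. The non-diabetic day 28 array stood apart in measures of RNA quality. The 3' minus 5' difference of beta-actin, a measure that increases as 5' sequence is lost from the labelled RNA, was 0.48, 0.38 and 0.37 on the diabetic arrays of days 14, 28 and 56, against 0.51, 0.59 and 0.41 on the non-diabetic ones. That of GAPDH was 0.30, 0.24 and 0.11 on the diabetic arrays and 0.20, 0.48 and 0.29 on the non-diabetic ones, so the non-diabetic day 28 array was the highest of the 6 in both. The diabetic day 28 array was not set apart in either. Counts are therefore also given without the day 28 pair where it changes them. The arrays carried heart tissue: the summed intensity of 17 adult contractile genes was 71200, 89980 and 87410 on the diabetic arrays and 77480, 76600 and 83980 on the non-diabetic ones.

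Across the 3 late days, diabetic myocardium carried more RNA of a pyruvate dehydrogenase kinase, 2 enzymes of fatty acid metabolism, a lipid kinase, a monooxygenase and a transcription elongation factor A-like protein, and less of an innate immune adaptor and of a muscle acetylcholine receptor subunit. With limma and Benjamini-Hochberg adjustment, 7 of 18625 probe sets were higher (0.0376%) and 2 were lower (0.0107%) in diabetic hearts at an adjusted p below 0.05, and 2057 (11%) had an unadjusted p below 0.05. These probe sets belonged to 6 higher genes (0.0565% of 10623) and 2 lower genes (0.0188%), since Pdk4 passed with 2 probe sets. The 6 higher genes were Pdk4, Pik3c2g, Acot1, Cyp1a1, Tceal5 and Decr1, and the 2 lower ones Card9 and Chrna1. In none of the 8 did the 3 diabetic arrays overlap the 3 non-diabetic ones, which restates their choice by this test; over all genes 7.6% were higher without overlap and 3.66% were lower without overlap.

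Pdk4, the pyruvate dehydrogenase kinase that is induced by fasting and shuts off glucose oxidation, read 1642, 4248 and 3685 on the diabetic arrays of days 14, 28 and 56, against 138, 382 and 439 on the non-diabetic ones. Each diabetic pool was thus far above its partner, and the lowest diabetic pool was above the highest non-diabetic one. Pdk4 rose by 3.29 ± 0.24 (SE, n = 3 pairs; adjusted p = 0.00195), and the 3 differences were 3.43, 3.42 and 3.02; its second probe set was higher by 4.02. Acot1, a cytosolic thioesterase that splits long-chain acyl-CoA into fatty acid and coenzyme A, read 84.8, 134 and 109 in diabetic hearts and 2.63, 6.32 and 3.90 in non-diabetic hearts. All 3 non-diabetic values lay under the filter level, so the size of that difference depends on the offset, while the diabetic values were clear of it. Acot1 rose by 2.61 ± 0.20 (SE, n = 3 pairs; adjusted p = 0.00195). Decr1, the mitochondrial reductase that makes unsaturated fatty acids accessible to beta-oxidation, read 1778, 3495 and 3423 in diabetic hearts and 592, 1072 and 675 in non-diabetic hearts. Like Pdk4 it was bright in both arms, and it rose by 1.86 ± 0.23 (SE, n = 3 pairs; adjusted p = 0.0465).

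Pik3c2g, which encodes a class II phosphoinositide 3-kinase, read 161, 352 and 89.3 on the diabetic arrays and 6.05, 15.4 and 10.8 on the non-diabetic ones. Its non-diabetic values all lay under the filter level, and it rose by 2.84 ± 0.31 (SE, n = 3 pairs; adjusted p = 0.0159). Cyp1a1, the monooxygenase induced through the aryl hydrocarbon receptor, read 56.7, 73.9 and 105 in diabetic hearts, against 6.52, 3.60 and 7.77 in non-diabetic hearts. All 3 non-diabetic values lay under the filter level, so the size of its differences, 1.69, 2.20 and 2.35, depends on the offset. Cyp1a1 rose by 2.08 ± 0.21 (SE, n = 3 pairs; adjusted p = 0.0121), and by 3.52 with an offset of 1 and 1.01 with one of 64. Tceal5, a member of the transcription elongation factor A-like family, read 72.2, 95.5 and 105 in diabetic hearts, against 14.0, 12.7 and 6.78 in non-diabetic hearts. Its non-diabetic values too lay under the filter level. Tceal5 rose by 1.97 ± 0.23 (SE, n = 3 pairs; adjusted p = 0.0274), with a difference of 2.96 at an offset of 1 and 1.04 at one of 64, where the call was lost (adjusted p = 0.0633).

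Card9, the adaptor that carries signals from fungal-sensing receptors of myeloid cells to NF-kappa B, read 9.20, 3.91 and 8.29 on the diabetic arrays and 549, 187 and 216 on the non-diabetic ones. The diabetic values all lay under the filter level, and Card9 fell by 3.70 ± 0.29 (SE, n = 3 pairs; adjusted p = 0.00195). The summed intensity of 18 macrophage markers was 8075, 4427 and 3697 on the diabetic arrays and 6217, 10540 and 2027 on the non-diabetic ones, higher in diabetic hearts on 2 of the 3 days; Card9 was lower on each. Chrna1, the alpha subunit of the acetylcholine receptor of the neuromuscular junction, read 23.2, 10.6 and 9.09 in diabetic hearts and 166, 96.2 and 111 in non-diabetic hearts. Its diabetic values lay under the filter level at days 28 and 56 and just above it at day 14, so the size of the difference depends on the offset. Chrna1 fell by 2.21 ± 0.21 (SE, n = 3 pairs; adjusted p = 0.00861), and its difference was -3.11 with an offset of 1 and -1.25 with one of 64. The summed intensity of 12 skeletal muscle markers was 8016, 7663 and 8515 in diabetic hearts and 9065, 7483 and 10930 in non-diabetic hearts, and of these Myh4, Tnnc2, Actn3, Pvalb and Mybpc1 lay under the filter level on every late array. As the arrays measured pieces of whole tissue, fewer cells of a type and less RNA per cell cannot be told apart for these genes or any below.

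**Figure D1:**
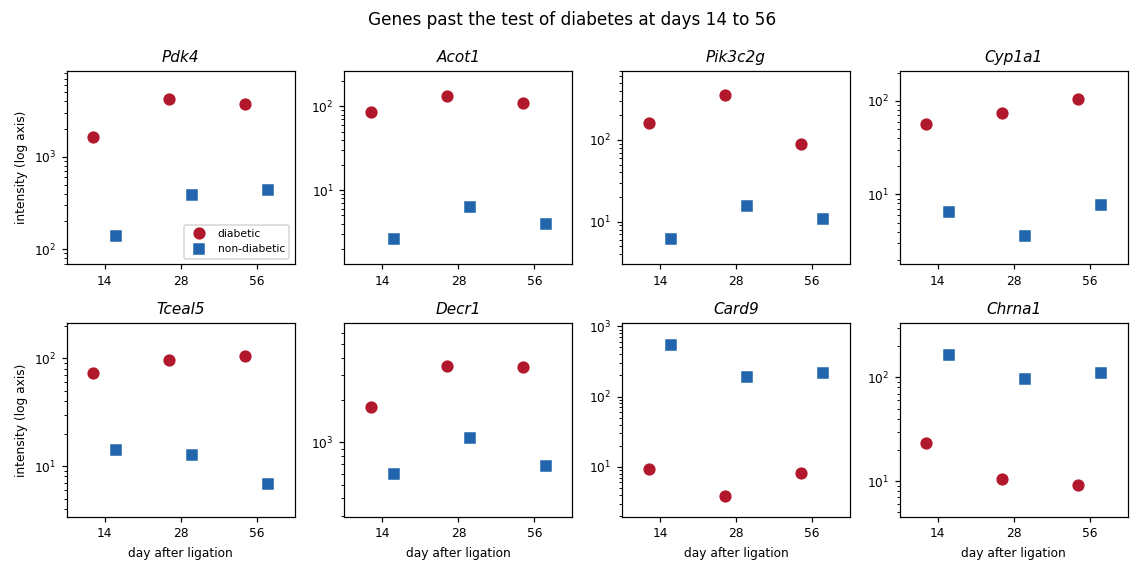
Intensity on a log axis of the 8 genes past the limma test, by day after ligation, with 1 point per array: red circles are diabetic pools and blue squares non-diabetic pools of 3 rats. In each panel the 3 diabetic arrays lie wholly above the non-diabetic ones (Pdk4, Acot1, Pik3c2g, Cyp1a1, Tceal5, Decr1) or wholly below them (Card9, Chrna1).

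Leaving out the day 56 pair ended all 8 calls, with adjusted p-values between 0.099 and 0.708 by limma, while the differences remained between 1.63 and 3.42 for the higher genes and at -3.92 for Card9 and -2.15 for Chrna1. Without the day 28 pair 1198 probe sets passed and without the day 14 pair 120, in fits with 1 residual degree of freedom in which the moderated variances rest almost wholly on the spread shared by all probe sets. Without the pairing by day 4 probe sets passed, and Pdk4 and Pik3c2g (adjusted p = 0.217 each), Decr1 (0.553) and Chrna1 (0.0941) did not. The number of calls thus depends on which 2 days are kept. The direction of the 8 genes could not change here, since each had the same sign in all 3 pairs.

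The stretch around the transcription start, 250 bases before to 50 bases after it, was available for 6 of the 8 genes in the RefSeq annotation of the rat genome build GRCr8. The 4 genes with the smallest adjusted p are shown, since they carry the clearest differences in either direction. Capitals mark each CCAAT box (CCAAT, or ATTGG on the other strand), a common promoter element bound by NF-Y, and each AGGTCA half-site (AGGTCA, or TGACCT on the other strand), the core that nuclear receptors such as PPAR alpha bind. The Pdk4 stretch lies at chr4:34568280-34568579 on the minus strand, that of Acot1 at chr6:109367024-109367323 on the plus strand, that of Card9 at chr3:29578353-29578652 on the minus strand and that of Chrna1 at chr3:78877304-78877603 on the minus strand.
Pdk4: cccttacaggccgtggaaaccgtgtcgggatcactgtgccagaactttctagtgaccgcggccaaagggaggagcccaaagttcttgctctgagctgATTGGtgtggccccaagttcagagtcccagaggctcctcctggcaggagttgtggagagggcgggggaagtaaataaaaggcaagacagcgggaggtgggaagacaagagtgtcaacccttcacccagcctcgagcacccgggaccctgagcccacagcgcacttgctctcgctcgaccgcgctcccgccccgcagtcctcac
Acot1: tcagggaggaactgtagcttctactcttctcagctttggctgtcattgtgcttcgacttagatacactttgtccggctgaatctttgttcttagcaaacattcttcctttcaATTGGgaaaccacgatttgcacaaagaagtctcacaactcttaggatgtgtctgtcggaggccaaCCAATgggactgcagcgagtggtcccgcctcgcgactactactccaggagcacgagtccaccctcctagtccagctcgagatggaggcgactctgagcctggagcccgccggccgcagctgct
Card9: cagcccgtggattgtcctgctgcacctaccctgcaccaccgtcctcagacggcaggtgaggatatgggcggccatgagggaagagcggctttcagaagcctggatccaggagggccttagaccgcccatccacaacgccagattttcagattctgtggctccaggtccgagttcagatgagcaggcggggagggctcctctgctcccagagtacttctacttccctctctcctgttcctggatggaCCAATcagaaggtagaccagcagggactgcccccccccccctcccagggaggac
Chrna1: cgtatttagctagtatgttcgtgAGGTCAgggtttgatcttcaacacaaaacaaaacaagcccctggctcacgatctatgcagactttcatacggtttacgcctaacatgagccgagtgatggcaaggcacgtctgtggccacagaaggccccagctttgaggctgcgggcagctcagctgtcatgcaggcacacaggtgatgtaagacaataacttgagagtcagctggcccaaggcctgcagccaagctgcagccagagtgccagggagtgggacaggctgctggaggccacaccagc
Of the 6 stretches, 2 held an AGGTCA half-site, in Chrna1 starting 227 bases and in Tceal5 196 bases before the start, and 3 held a CCAAT box, in Pdk4, Acot1 and Card9. Among all 33469 promoters annotated there, 16.2% held the half-site and 37.5% the CCAAT box, and among the 8862 promoters of measured genes 11.7% and 37.5%. The motifs do not overlap each other in letters, and a match or its absence in so short a window is a description only.

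Genes with one direction in all 3 pairs were counted whatever their test. Of 10623 genes, 2018 (19%) were higher and 1379 (13%) lower in diabetic hearts in all 3 pairs, whatever the size. With a smallest difference of at least 0.5 there were 226 higher genes (2.13%) and 99 lower genes (0.932%), and with one of at least 1 there were 21 (0.198%) and 15 (0.141%). That split depended on the scaling: at 0.5 it was 151 higher and 158 lower genes after quantile normalization and 154 and 131 with array medians set equal. At a smallest difference of 1 these were 16 and 20, and 17 and 18. Without the day 28 pair, 916 genes were higher and 172 lower by at least 0.5 in both other pairs. Just inside the limit of 1 stood Bfar at 1.00 among the higher genes and Cox7a1 at 1.01 among the lower ones, and just outside it Syncrip-ps2 at 1.00 and Fndc5 at 0.99. The arms did not overlap in 20 of the 21 higher genes (95.2%) and 12 of the 15 lower genes (80%). Over all genes 7.6% were higher and 3.66% lower without overlap. The same late values chose these genes, so their share largely restates that choice.

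The 15 genes with the largest smallest difference upward were the 6 called genes and Nudt7, Rbp7, Cyp2e1, Plekha5, Rgs2, Fgl2, Etfbkmt, Acot2 and Cpt1a, of which the last 9 did not pass the limma test. Nudt7, the peroxisomal hydrolase of coenzyme A, read 463, 631 and 530 in diabetic hearts and 140, 213 and 121 in non-diabetic hearts, a difference of 1.70 ± 0.27 (SE, n = 3 pairs; adjusted p = 0.128). Acot2, the mitochondrial neighbour of Acot1 in function, read 1018, 2393 and 1886 in diabetic hearts, against 467, 667 and 520 in non-diabetic hearts; whether its probes also bind Acot1 RNA was not tested. Cpt1a, the carnitine palmitoyltransferase form of liver that gates entry of long-chain fatty acids into mitochondria, read 652, 656 and 670 in diabetic hearts and 288, 301 and 229 in non-diabetic hearts, and was nearly constant within each arm. Etfbkmt, a methyltransferase that acts on the beta subunit of the electron transfer flavoprotein, read 255, 767 and 339 in diabetic hearts, against 86.4, 243 and 149 in non-diabetic hearts. A second, dimmer Etfbkmt probe set had differences of 0.10, 0.17 and -0.005. Rbp7, a retinol-binding protein, had differences of 1.56, 1.32 and 2.55. Those of Cyp2e1, a monooxygenase that oxidises ethanol and ketone bodies, were 2.20, 2.69 and 1.21. Rgs2, which shortens signalling through Gq-coupled receptors, had 1.60, 1.15 and 1.44, and Fgl2, a fibrinogen-like protein, 1.52, 1.13 and 1.35. Adjusted p-values of the 9 genes lay between 0.108 and 0.232.

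The 15 genes downward were the 2 called genes and 13 that did not pass the limma test. Scx, the scleraxis transcription factor that marks tendon and some fibroblasts, came closest beside Ube2c and Bdh1. It read 99.2, 58.0 and 50.5 in diabetic hearts and 516, 380 and 168 in non-diabetic hearts, with a difference of -2.03 ± 0.29 (SE, n = 3 pairs; adjusted p = 0.0778). Bdh1, the mitochondrial dehydrogenase that interconverts the 2 main ketone bodies, read 38.1, 46.3 and 44.2 in diabetic hearts, against 279, 239 and 143 in non-diabetic hearts, with the same adjusted p. In both genes the arms were well apart on every day. Ube2c, a ubiquitin-conjugating enzyme of mitotic exit, read 24.2, 5.30 and 0.557 in diabetic hearts and 94.8, 45.7 and 23.5 in non-diabetic hearts (adjusted p = 0.0582); the arms overlapped slightly, since the diabetic value of day 14 was above the non-diabetic value of day 56. Cox7a1, the heart and skeletal muscle form of a cytochrome c oxidase subunit, read 376, 230 and 266 in diabetic hearts, against 1575, 1054 and 552 in non-diabetic hearts. Ckb, the brain form of creatine kinase, had differences of -1.46, -1.01 and -1.26, and Hopx, a homeodomain-only protein of cardiac development, -1.24, -1.60 and -1.39. Aplnr, the apelin receptor of endothelium, had -1.44, -2.27 and -1.23, and Col4a2, a chain of basement membrane collagen, -1.17, -1.73 and -1.08. A second, dimmer Aplnr probe set had -0.20, -0.89 and -0.63. Sctr, the secretin receptor, had -1.19, -1.45 and -3.25, and Gngt2, a G protein gamma subunit, -1.76, -2.97 and -1.23. Aif1l, an actin-binding protein, had -1.37, -1.57 and -1.32 by its brightest probe set and -0.21, -0.21 and -0.49 by a second one. Alas2, the erythroid enzyme that starts haem synthesis, had -1.99, -1.16 and -1.88, and LOC102553868, which has no annotated role here, -1.07, -1.47 and -1.14.

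**Figure D2:**
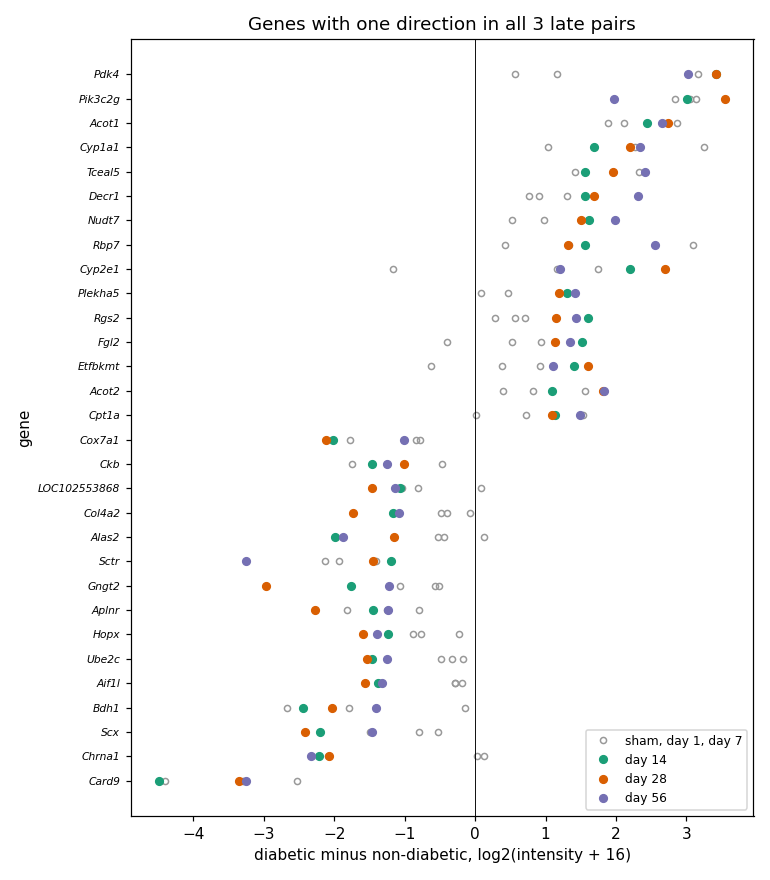
Diabetic minus non-diabetic difference on the log2(intensity + 16) scale for the 15 genes upward and 15 downward whose smallest difference was largest over days 14, 28 and 56. Filled points are the late pairs that chose the genes and open points the pairs of sham, day 1 and day 7. Most open points lie on the same side of 0 as the filled ones, and those of Chrna1 at sham and day 7 lie at 0.

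The pairs of sham, day 1 and day 7 were other pools, and their differences had no part in choosing these genes. Their levels did enter the filter and the choice of probe set, which used the mean over all 12 arrays. A gene dim in 1 arm could pass the filter through the other arm. The shares below are therefore not free of the filter, and its part in them was not tested. Of the 21 genes higher by at least 1 in all 3 late pairs, 21 were higher in diabetic hearts in the sham pair, 15 at day 1 and 20 at day 7, and 14 in all 3 (66.7%), against 9.15% of all genes. Of the 15 lower genes, 12 (80%) were lower in all 3 other pairs, against 21.1% of all genes. The 21 higher genes had median differences of 1.56, 0.53 and 0.98 at sham, day 1 and day 7, beside 1.52, 1.5 and 1.83 at days 14, 28 and 56, where the choice of genes by their late differences sets the level. At the lower limit of 0.5, 48 of 226 higher genes (21.2%) were higher and 57 of 99 lower genes (57.6%) were lower in all 3 other pairs. The day 1 and day 7 arrays differed from all others in the 3' minus 5' difference of beta-actin, which was 0.98 to 1.00. The 5' hexokinase control also set them apart, at 0.06 to 3.19 against 14.2 to 82.9 on the others. The 3' minus 5' difference of GAPDH, 0.32 to 0.36, did not set them apart. The part of RNA quality in these numbers was not tested.

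A limma test of the other 3 pairs alone called 3 higher probe sets (0.0161%) and 1 lower probe set (0.00537%), beside 1337 (7.18%) at an unadjusted p below 0.05. Pik3c2g passed in both sets of arrays, with a difference of 3.01 in the other pairs (adjusted p = 0.00527). Bex1, a brain-expressed relative of Tceal5, and Gcat, a mitochondrial enzyme of threonine breakdown, passed in the other pairs and not in the late ones, where they had the same direction. Bex1 read 796, 856 and 785 on the late diabetic arrays, against 306, 406 and 101 on the late non-diabetic ones, and Gcat had late differences of -0.64, -0.99 and -1.12. The test that called these 3 genes used no late array. In each late pair, the day 28 pair included, they went the way of the other pools. Whether the labels of the late arrays are right was not tested.

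The called genes did not all show their late difference earlier. Pdk4 was higher in diabetic hearts by 3.17 in the sham pair, 0.56 at day 1 and 1.16 at day 7, and its late minus first-week difference was 2.43 ± 0.34 (SE), with an unadjusted p of 5.1e-05 and an adjusted p of 0.475 by limma. Chrna1 had differences of 0.13 at sham, -2.09 at day 1 and 0.03 at day 7. Card9 was lower in every other pair too, by -4.40, -3.30 and -2.53, and Acot1 higher, by 2.87, 1.89 and 2.11. Across all probe sets, the test of the late against the first-week diabetes difference called 0 at an adjusted p below 0.05 and 974 (5.23%) at an unadjusted one, and the test against sham called 0 and 168 (0.902%). Without the day 28 pair these tests called 4 and 98, and without the day 14 pair 0 and 6.

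Genes of fatty acid use were higher in diabetic hearts as a group. Of 32 measured members of the list of fatty acid uptake, activation and oxidation, 24 (75%) were higher in all 3 late pairs, against 19% of all genes, 1 was lower and 1, Decr1, passed the test. The median difference of the list was 0.25 at day 14, 0.81 at day 28 and 0.79 at day 56. In the other pairs it was 0.37 at sham, -0.25 at day 1 and 0.19 at day 7. Cd36, the fatty acid translocase of the cell surface, read 2757, 4809 and 3848 in diabetic hearts and 916, 2148 and 2494 in non-diabetic hearts. Ucp3, an uncoupling protein of muscle mitochondria, read 142, 60.7 and 144 in diabetic hearts, against 19.4, 39.2 and 30.3 in non-diabetic hearts, with its smallest difference, 0.47, at day 28. Hadha, a subunit of the trifunctional protein of beta-oxidation, had differences of 0.35, 1.38 and 1.26, and Ehhadh, a bifunctional enzyme of peroxisomal oxidation, 0.61, 1.35 and 0.81. Cpt1b, the muscle form of the palmitoyltransferase, had -0.23, 0.73 and 0.38 and so did not share the direction of Cpt1a at day 14. Acsl6, an acyl-CoA synthetase, was the 1 member lower in all 3 pairs, by -0.49, -1.08 and -1.12. Among 11 thioesterases and coenzyme A hydrolases only Acot1, Acot2 and Nudt7 (27.3%) were higher in all 3 pairs, against 19% of all genes. The median of that list was 0.10.

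Genes of fatty acid delivery and storage were more mixed. Gpihbp1, the endothelial anchor of lipoprotein lipase, read 366, 805 and 736 in diabetic hearts and 169, 202 and 128 in non-diabetic hearts. Angptl4, a secreted inhibitor of that lipase, read 455, 56.7 and 458 in diabetic hearts and 11, 51.3 and 0.00490 in non-diabetic hearts, so the arms were far apart at days 14 and 56, with differences of 4.13 and 4.89, and close at day 28, with one of 0.11. Its late difference was 3.04 ± 0.73 (SE, n = 3 pairs; adjusted p = 0.272). Lpl itself, the lipase, had differences of 0.44, 0.55 and -0.10. Gpam, which starts triglyceride synthesis, had 1.01, 1.09 and 0.88, and Lipe, the hormone-sensitive lipase, 0.47, 1.51 and 1.00. A second, dimmer Lipe probe set had -0.27, 0.36 and -0.06. Of the 19 measured genes of this list 6 (31.6%) were higher in all 3 pairs, 2 (10.5%) were lower and none passed. Over all genes 19% were higher and 13% lower.

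On the glucose side, Slc2a4, the insulin-dependent glucose transporter GLUT4, read 513, 774 and 429 in diabetic hearts, against 1547, 1029 and 1306 in non-diabetic hearts. The arms did not overlap, yet the difference at day 28 was -0.40 beside -1.56 and -1.57 at days 14 and 56. The mean of -1.18 ± 0.30 (SE, n = 3 pairs) had an adjusted p of 0.286 by limma. A second, dimmer Slc2a4 probe set had -1.43, 0.08 and -1.15. Hk2, the insulin-responsive hexokinase, had differences of -0.65, -0.58 and -0.83, and Pgam2, the muscle phosphoglycerate mutase, -1.28, -0.21 and -0.38. Of 23 measured genes of glucose uptake and glycolysis, 4 were higher and 4 lower in all 3 pairs (17.4% each), near the 19% and 13% of all genes, and none passed. In the pyruvate dehydrogenase list of 12 genes, Pdk4 passed; Pdk1, another of the kinases, had 0.53, 1.78 and 0.65 by its brightest probe set and 0.32, -0.29 and -0.07 by another, and Pdp2, a phosphatase that reverses the kinases, had -0.78, -0.38 and -1.17. Txnip, an inhibitor of thioredoxin that responds to glucose, read 2873, 3773 and 4222 in diabetic hearts and 787, 1811 and 2348 in non-diabetic hearts. Cbr1, a carbonyl reductase, had differences of 0.73, 1.72 and 2.09. Of 28 measured antioxidant and xenobiotic genes 10 (35.7%) were higher and 1 (3.57%) was lower in all 3 pairs, against 19% and 13% of all genes, with Cyp1a1 past the test; the sign of the list's mean at day 28 was negative, and positive after quantile normalization.

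Antigen presentation, dividing-cell and interferon genes leaned the other way without a member past the test. Of 12 genes of MHC class II and antigen presentation, 7 were lower in all 3 pairs (58.3%, against 13% of all genes) and none higher, with medians of -0.52, -1.43 and -0.23 at days 14, 28 and 56. RT1-Da, the alpha chain of a rat class II molecule, read 850, 166 and 194 in diabetic hearts, against 1240, 1513 and 312 in non-diabetic hearts, and RT1-Ba read 232, 74.9 and 64.9, against 485, 503 and 137. The day 28 difference was the largest in both, at -3.07 and -2.51, and the non-diabetic day 28 array was the highest of the 6. Other, dimmer RT1-Ba probe sets had -3.12, -0.05 and 0.20 at day 28. Of 10 measured proliferation genes 7 (70%) were lower in all 3 pairs and none higher, against 13% and 19% of all genes. With a smallest difference of at least 0.5, 1 of the 10 was lower in all 3. Cdk1, the kinase that starts mitosis, read 15.9, 2.85 and 4.35 in diabetic hearts and 89.3, 34.8 and 6.67 in non-diabetic hearts. Both its day 56 values lay under the filter level, as did those of Prc1, another member, at 6.94 and 10.1. The order of the arms at day 56 is therefore not reliable for these genes. Of 26 interferon-response genes 9 (34.6%) were lower and none higher in all 3 late pairs, against the same 13% and 19%. Their median late difference was -0.27. That list had medians of 0.60 in the sham pair and 1.01 at day 7, and one of -0.46 at day 1. Irf7, a transcription factor of that response, had late differences of -1.45, -0.87 and -0.30, beside 0.48, -0.45 and 1.98 at sham, day 1 and day 7.

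Among markers of the vessel wall and blood, 5 of 16 endothelial genes (31.2%) were lower in all 3 pairs and 1 (6.25%), Cldn5, was higher. Over all genes these shares were 13% and 19%. Tie1, an endothelial receptor kinase, read 242, 195 and 244 in diabetic hearts, against 702, 408 and 464 in non-diabetic hearts, and Pecam1, an adhesion molecule of endothelium, had differences of -0.66, -0.46 and -0.45. The summed intensity of 16 endothelial markers was 7623, 7027 and 6825 in diabetic hearts and 9823, 9526 and 7925 in non-diabetic hearts, without overlap. Aplnr and Tie1 are members of that sum, and whether fewer endothelial cells were in the diabetic pieces was not tested. The erythroid sum was 3848, 5037 and 2309 in diabetic hearts and 5788, 6085 and 4793 in non-diabetic hearts, lower on each day. Most of each sum was the globin gene Hbb, which read 3685, 4810 and 2219, against 5342, 5639 and 4545. Epb42, Car1 and Rhag of the erythroid list lay under the filter level. Alas2 is a member of that list, and the part of blood in its values was not tested.

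Among classical genes of cardiac load, contraction and excitation, none passed the test late after infarction. Nppb, the B-type natriuretic peptide, read 3842, 1986 and 3019 in diabetic hearts, against 4122, 3318 and 3667 in non-diabetic hearts. Nppa, the atrial peptide, read 7200, 5985 and 7125 in diabetic hearts and 5916, 7134 and 3773 in non-diabetic hearts, higher on 2 days and lower at day 28. Myh6, the fast alpha myosin heavy chain, read 4000, 4290 and 4766 in diabetic hearts and 6273, 5406 and 6761 in non-diabetic hearts, while Myh7, the slow beta chain, read 7444, 8172 and 8134, against 4862, 6415 and 7110. The arms did not overlap in either by its brightest probe set. Their late differences were -0.49 ± 0.15 and 0.39 ± 0.14 (SE, n = 3 pairs), with adjusted p-values of 0.304 and 0.368 by limma. A second, dimmer Myh6 probe set had -2.17, 0.27 and -1.42. Acta1, skeletal alpha-actin, had 0.05, -0.34 and -0.34, and Atp2a2, the calcium pump of the sarcoplasmic reticulum, 0.04, 0.31 and 0.04. Scn4b, an accessory subunit of the cardiac sodium channel, read 179, 336 and 391 in diabetic hearts, against 893, 440 and 856 in non-diabetic hearts. Kcna4, a potassium channel of early repolarisation, read 37.7, 63.4 and 37.1 in diabetic hearts, against 13.7, 8.86 and 11.1 in non-diabetic hearts.

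The day 28 pair differed from its neighbours in a set of genes led by extracellular matrix. Of 10623 genes, 2640 (24.9%) were lower in diabetic hearts at day 28 and higher at days 14 and 56, and 651 (6.13%) showed the reverse. With each of the 3 differences at least 0.5 in size these numbers were 240 (2.26%) and 10 (0.0941%), and with at least 1 they were 21 (0.198%) and 0. At the limit of 0.5, day 14 was the odd pair in 14 genes as the lower one (0.132%) and 9 as the higher one (0.0847%), and day 56 in 13 (0.122%) and 38 (0.358%), so an odd day 28 with a lower diabetic value was the most frequent of the 6 patterns. After quantile normalization the 240 and 10 genes became 141 and 30. Just inside the limit of 0.5 lay Mylk and just outside it Prss23, both at 0.50.

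**Figure D3:**
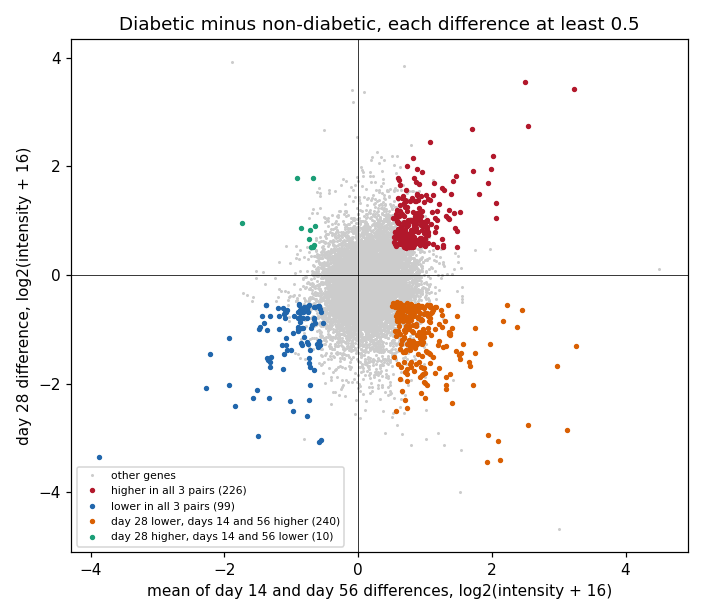
Day 28 difference against the mean of the day 14 and day 56 differences, both diabetic minus non-diabetic on the log2(intensity + 16) scale, with 1 point per gene. Coloured points have all 3 differences at least 0.5 in size: 226 genes higher and 99 lower in all 3 pairs, 240 lower at day 28 alone and 10 higher at day 28 alone.

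Ccn5, a matricellular protein of the CCN family, read 615, 57.7 and 286 on the diabetic arrays of days 14, 28 and 56, against 58.7, 517 and 17.5 on the non-diabetic ones. The 2 arms thus exchanged places at day 28, with differences of 3.08, -2.86 and 3.17. Postn, or periostin, a matrix protein of activated fibroblasts, read 1808, 128 and 171 in diabetic hearts, against 153, 963 and 43.4 in non-diabetic hearts. Fn1, or fibronectin, read 945, 285 and 470 in diabetic hearts, against 354, 1214 and 99.6 in non-diabetic hearts. In all 3 genes the diabetic arm was lowest at day 28 and the non-diabetic arm was highest there. Col8a2, a short-chain collagen, read 576, 22.1 and 117 in diabetic hearts and 95.4, 387 and 21.3 in non-diabetic hearts, and its relative Col8a1 had differences of 1.46, -1.40 and 1.48. Thbs4, a thrombospondin, had 1.81, -2.95 and 2.07, and Ltbp2, which binds elastic microfibrils, 1.46, -3.44 and 2.39. Cp, the copper-carrying ferroxidase ceruloplasmin, had 1.57, -1.55 and 1.47, and Fibin and Sertad4 completed the 10 genes with the largest smallest difference.

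**Figure D4:**
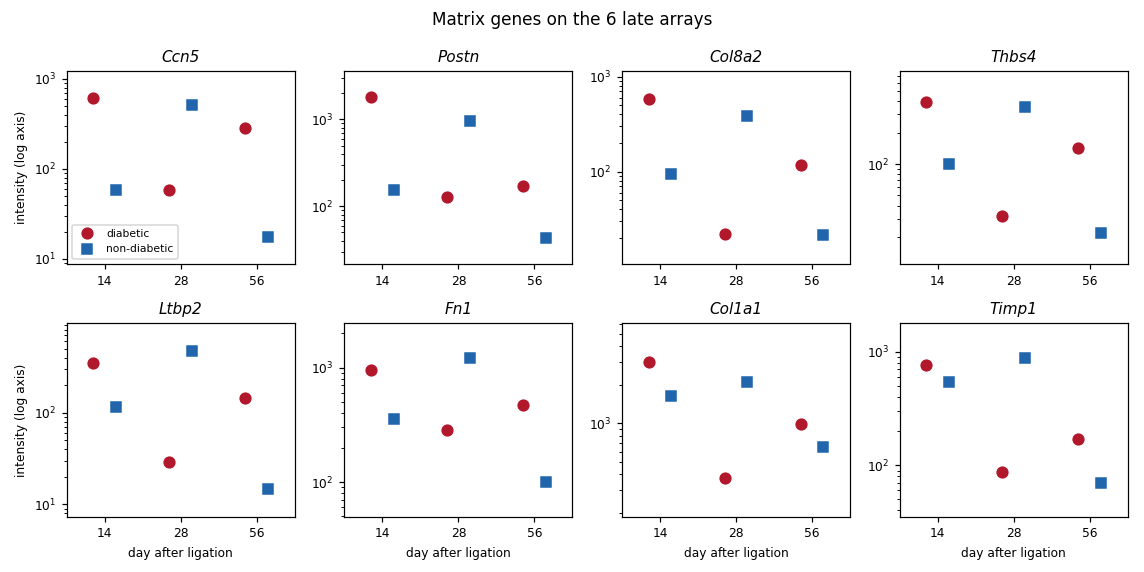
Intensity on a log axis of 8 matrix genes by day after ligation, with 1 point per array: red circles are diabetic and blue squares non-diabetic pools of 3 rats. In every panel the diabetic pool lies above its partner at days 14 and 56 and below it at day 28.

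The same pattern was frequent among genes of the extracellular matrix. Of 41 measured matrix genes 21 were lower at day 28 and higher on both other days, 12 of them by at least 0.5, against 24.9% and 2.26% of all genes, and the median difference was 0.61, -1.70 and 0.36 at days 14, 28 and 56. Col1a1, the main fibrillar collagen chain, read 3004, 371 and 980 in diabetic hearts, against 1616, 2108 and 651 in non-diabetic hearts, and Col3a1 read 5799, 1223 and 2712, against 3802, 5443 and 2134. Timp1, an inhibitor of matrix proteases, read 765, 88.0 and 171 in diabetic hearts and 542, 891 and 70.5 in non-diabetic hearts. Spp1, or osteopontin, a product of macrophages and fibroblasts, read 218, 37.8 and 237, against 247, 489 and 10.9. The mean late difference of each of these 4 genes was small and negative, between -0.05 and -0.51, and positive without the day 28 pair, between 0.48 and 1.53. Basement membrane collagens did not follow them: Col4a1 had -0.84, -1.53 and -0.63, and Col15a1 -0.78, -2.59 and -0.76.

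Markers of fibroblasts and macrophages were often among the genes of this pattern. Of 12 fibroblast markers 10 (83.3%) were lower at day 28 and higher at days 14 and 56, with medians of 0.67, -0.96 and 0.72. Of 17 macrophage markers 10 (58.8%) had this pattern, with medians of 0.30, -1.40 and 0.56. Over all genes the share was 24.9%. The summed intensity of the fibroblast markers was 13970, 9588 and 10740 in diabetic hearts and 9709, 15320 and 6960 in non-diabetic hearts. That of the macrophage markers, given above, was highest of the 6 arrays in the non-diabetic pool of day 28, and that of 7 neutrophil markers was 298.5, 201 and 79.7 in diabetic hearts and 76.8, 1181 and 82.3 in non-diabetic hearts, with Cxcr2, Camp and Np4 under the filter level. The part of these cells in the matrix values was not tested. Adult contractile genes had medians of -0.16, 0.11 and 0.08, and the sign of their mean at day 56 was positive, and negative after quantile normalization or with array medians set equal.

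**Figure D5:**
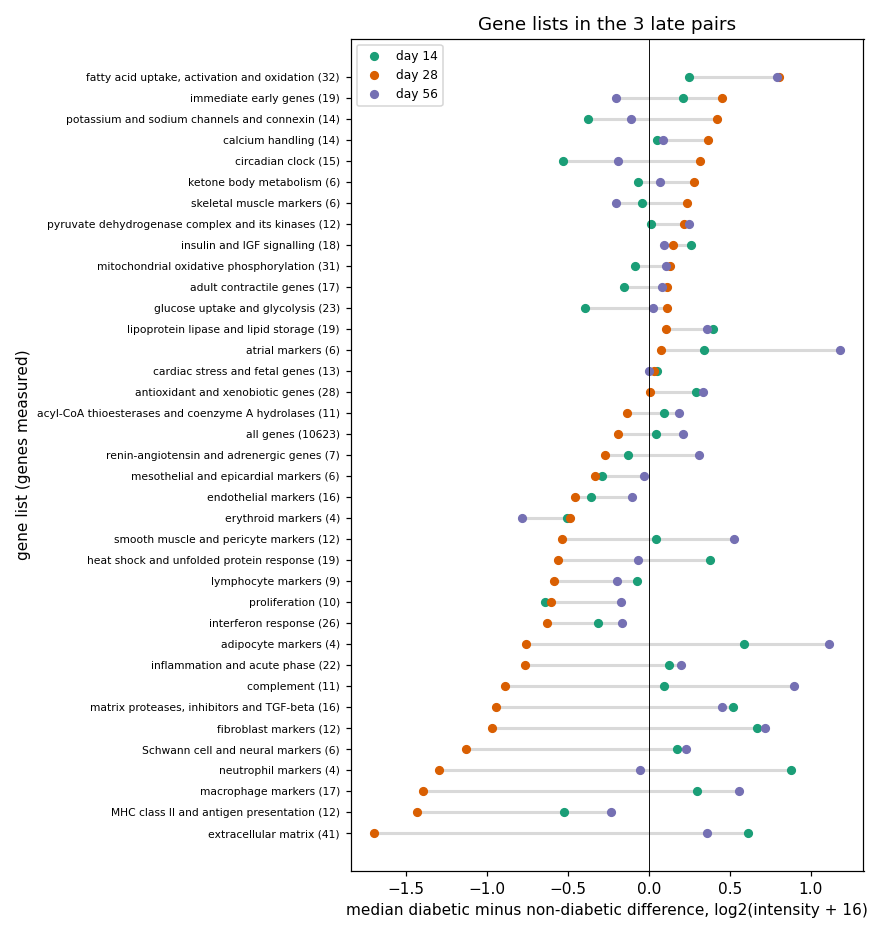
Median diabetic minus non-diabetic difference of each gene list on the log2(intensity + 16) scale at day 14 (green), day 28 (orange) and day 56 (violet), with the number of measured genes in brackets. Fatty acid genes lie to the right on all 3 days, MHC class II genes to the left on all 3, and extracellular matrix, macrophage and fibroblast genes to the left at day 28 alone.

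The exchange of places lay more in the non-diabetic than in the diabetic arm. Among the 240 genes, the non-diabetic day 28 array was above both its neighbours in 238, and the diabetic day 28 array was below both of its own in 174. The median shift of the day 28 array from the mean of days 14 and 56 was -0.56 in diabetic hearts and 1.30 in non-diabetic hearts, against -0.06 and 0.27 over all genes. The non-diabetic shift was the larger in 218 of the 240 genes (90.8%), against 67% of all genes. Set against the sham array of the same arm, the median level of the 240 genes was 0.71, -0.23 and -0.09 at days 14, 28 and 56 in diabetic hearts, and -0.33, 0.68 and -0.91 in non-diabetic hearts. The non-diabetic day 28 array was also the one with the highest 3' minus 5' differences, and with 1 array per treatment and day the pool of rats, the array and the day cannot be told apart. In the pairs of sham, day 1 and day 7 the 240 genes had median differences of -0.08, 0.11 and -0.05. In all 3, 34 of them (14.2%) were higher and 38 (15.8%) lower, against 9.15% and 21.1% of all genes.

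The 10 genes of the reverse pattern, higher in diabetic hearts at day 28 alone, were Ccnd2, Per3, Phospho1, Itga1, Dusp8, Zpbp2, LOC102549608, Hlf, Csn1s1 and Foxj1. Ccnd2, or cyclin D2, read 146, 256 and 263 in diabetic hearts, against 583, 125 and 830 in non-diabetic hearts. Per3, a component of the circadian clock, read 10.1, 68.7 and 68.0, against 31.0, 8.59 and 149, and Hlf, a clock-controlled transcription factor, had differences of -0.53, 0.83 and -0.92 by its brightest probe set and -0.21, 0.20 and 0.06 by a second one. Itga1, the integrin that binds collagen and laminin, read 44.8, 163 and 223 in diabetic hearts and 81.8, 36.0 and 360 in non-diabetic hearts. In all 10 genes the non-diabetic day 28 array was the lowest of its arm.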

How the data were processed

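RNA of the remote left ventricular wall was hybridised to Affymetrix rat arrays, each with RNA pooled from 3 animals, as the labels state. The authors deposited 1 linear intensity per probe set and array, made per the submitters' processing notes with PLIER in Affymetrix Expression Console; version, background step and scaling: not given in the sources used here. Depth cannot be stated for intensities, and the number of arrays limits the precision. Groups came from the labelled injection and the time in the protocols. From the deposited intensity, log2(intensity + 16) was computed without further scaling. Of 31099 probe sets 57 controls were removed, 20826 of the rest had 1 gene symbol, 436 several and 9780 none here, and the 18625 above the 40th percentile of mean log2 value were kept, 14310 with 1 symbol for 10623 genes, each read by its brightest probe set. Symbols came from the platform annotation, and 20758 were matched by Entrez ID to the reference genes. limma 3.58.1 in R 4.3.3 (lmFit, eBayes with a variance trend, two-sided, Benjamini-Hochberg over all 18625 probe sets, threshold 0.05) fitted diabetes with the day as a block to the 6 late arrays, which leaves 2 residual degrees of freedom, to the 6 other arrays, and as an interaction with the late days to 10 or 8 arrays. An exact sign-flip test over 3 pairs cannot give a p below 0.25, so none was used. The pairing is by day: both arrays of a pair share the time after ligation, not animals, and the block stands in the fit for that reason.

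Counts of one direction, day 28 patterns and the 36 gene lists (674 genes) are descriptions without a test. Named genes are those past the test, the 15 genes in each direction with the largest smallest difference among those reaching 1, the 10 of each day 28 pattern with the largest smallest difference, up to 4 members of a list with one direction, and a fixed set of 15 heart genes; other members of lists are named to show the range of their list. The comparison, the lists and these rules were chosen with earlier results of these data known, so their direction is not independent evidence. In simulated data with 200 of 18625 probe sets changed, the late fit recovered 0% of log2 changes of 1, 51% of 2 and 82.5% of 3, with 0 in the wrong direction and 0, 4 and 6 unchanged probe sets called. Promoter stretches are from RefSeq, build GRCr8, and 21 of the 30 genes named for their smallest difference had one. Alternatives changed the offset, scaling, filter, block, variance trend, arrays in the fit and the pairs kept.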

Additional observations from a re-analysis of the deposited data

Results flagged for a closer look

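In 12 of the named genes and 1 of the 36 lists, all 3 late pairs lay on 1 side of 0 and both first-week pairs on the other. The naming by list alone gave 106 genes, each chosen because its 3 late pairs shared a direction. How often the pattern occurs over all genes was not counted, so the 12 cannot be read as more than usual. The limma test of the late minus first-week diabetes difference did not pass for any of the 12 genes, with adjusted p-values from 0.927 to 0.956, and the list was not tested. The differences below are late minus first week, on the log2(intensity + 16) scale, and the arrays of days 1 and 7 also differed from the others in the 3' minus 5' measure of beta-actin.

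Among genes of fuel use, the difference was 1.41 for Pdk1, a pyruvate dehydrogenase kinase, 0.61 for Pdha1, a subunit of pyruvate dehydrogenase, 0.99 for Tbc1d4, a regulator of glucose transporter traffic, and 0.72 for Pik3ca, the catalytic subunit alpha of phosphoinositide 3-kinase. Among muscle genes it was -0.46 for Nppb, 0.27 for Tnnc1 (slow troponin C), 0.23 for Atp2a2 and -0.90 for Mybpc2, a fast-fibre myosin-binding protein. It was -1.31 for Ccl4, a chemokine of activated immune cells, and 1.11 for Cldn5, a tight-junction protein of endothelium. Nr4a1 and Nr4a2, nuclear receptors of the immediate early response, had 1.19 and 0.87. Other probe sets do not bear out 1 side of 0 for 3 of these genes. A second, almost equally bright Pdk1 probe set had 0.32, -0.29 and -0.07 at days 14, 28 and 56. For Pik3ca, 1 of the other probe sets had 0.70, 0.61 and -0.17 on these days. The 3 other Atp2a2 probe sets each had differences of both signs over the late pairs. The mean of 4 measured erythroid markers had -0.88, with -0.72, -0.50 and -0.86 at days 14, 28 and 56 and 0.01 and 0.36 at days 1 and 7. For Pik3ca, Nr4a1, Nr4a2, Atp2a2, Cldn5 and Nppb the difference of at least 1 first-week pair was under 0.05 in size.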

How the results depend on the processing

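Every value rests on 1 array per treatment and day. The late fit had 2 residual degrees of freedom, so the number of probe sets past the test moved widely; p-values with a pair left out have 1 and lean on limma's shared variance. Levels under an intensity of about 20.6 have no reliable order. Over the alternatives run, the late difference changed sign in 5 of the named genes for which it was followed, none of them among the 8 called genes. It was not followed for genes named only by a day 28 pattern, whose late pairs have both signs by choice. Those 8 had the same sign in every late pair, so leaving out a pair or changing the offset could not reverse them.

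The 9 calls of the late test (7 higher, 2 lower) became 4 (3 and 1) with no replicate block, that is, without the pairing by day, and 5 (3 higher) with no variance trend. Higher calls were 4 with an offset of 64, and lower calls were 4 after quantile normalization, with array medians set equal, with no filter and with a filter at the 60th percentile. Leaving out a pair gave 0 to 1198 calls, 0 to 993 higher and 0 to 205 lower. Genes with one direction and at least 0.5 (325) were 494 with an offset of 1, of which 161 were lower, and 149 with one of 64 (101 and 48), and lower ones 158 after quantile normalization; leaving out a pair gave 582 to 1088, 426 to 916 higher and 156 to 533 lower. At a limit of 1 (21 and 15), an offset of 1 gave 38 and 26, one of 64 gave 8 and 6, and leaving out a pair 49 to 76 and 27 to 46. The 250 day 28 genes (240 and 10) were 404 (380 and 24) with an offset of 1, 96 (93 and 3) with one of 64, 141 and 30 after quantile normalization, and 21 (21 and 0) at a limit of 1. Leaving out a pair gave 0 to 4 calls for late minus first week and 0 to 98 for late minus sham, and 17 to 29 lists with 1 sign of the mean on every day kept, against 14 with all 3. Fewer pairs to share a sign raise the counts of genes with one direction and of lists by construction. This does not hold for the calls of the tests, whose fits have fewer residual degrees of freedom with a pair left out. The other causes were not tested.

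Among the late differences followed, those of the genes below changed sign. Spp1 (main -0.05) had 0.16 with an offset of 1 and -1.70 to 1.53 over the pairs left out, 0.0030 without day 14. Over the same pairs Postn lay between -0.55 and 2.55, Col1a1 between -0.94 and 0.73, Col3a1 between -0.90 and 0.48 and Timp1 between -1.32 and 0.80. Of 12 alternatives each, or 11 where a gene fell to a filter, Acot1 passed in 10, Card9 in 11, Pdk4 in 10, Cyp1a1 in 9, Chrna1, Pik3c2g and Decr1 in 8 and Tceal5 in 7.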

Other observations

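The diabetic array of day 28 was high in several genes of the immediate early response, which are switched on within minutes to hours of a stimulus. The genes shown here were picked after their values were seen. Over 19 measured immediate early genes the median day 28 difference was 0.45, with Nr4a1 at 3.37 and Klf2 at -1.01. Their mean log2 level was 8.48 on the diabetic and 7.92 on the non-diabetic day 28 array. On the other late arrays it was 6.80 to 7.62. Of the 10623 genes, 24 were at least 1 log2 unit higher on the diabetic day 28 array than on any of the other 5 late arrays. For each of the others this count was 1 to 17. The non-diabetic array of day 56 was the lowest by at least 1 in 49 genes, the most of any late array, against 4 to 21 for each of the others. Nr4a1 read 84.4, 1037 and 51.9 on the diabetic arrays of days 14, 28 and 56 and 80.1, 85.7 and 46.8 on the non-diabetic ones. Egr1, a zinc-finger transcription factor of that response, read 214, 1691 and 49.9 in diabetic hearts and 110, 276 and 108 in non-diabetic hearts. Sik1, a salt-inducible kinase, read 93.9, 740 and 75.2 in diabetic hearts, against 122, 239 and 118 in non-diabetic hearts. Irs2, an adaptor of the insulin receptor, read 104, 455 and 140 in diabetic hearts and 49.8, 70.9 and 49.1 in non-diabetic hearts.

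The non-diabetic array of day 28 was in turn the highest in the neutrophil proteins S100a9 and S100a8. S100a9 read 167, 99.8 and 17.1 in diabetic hearts and 15, 860 and 21.1 in non-diabetic hearts, and S100a8 52.6, 45.7 and 12.3, against 11.8, 223 and 9.28. At day 14, Orm1, an acute phase protein, and Car3, a carbonic anhydrase of fat and slow muscle, set the diabetic array apart: Orm1 read 201, 29.7 and 14.4 in diabetic hearts, against 18.3, 20.1 and 8.5, and Car3 read 532, 18.5 and 168, against 14.5, 69.4 and 20.3. Ttn, the giant sarcomere protein titin, read 1466, 5824 and 5855 in diabetic hearts and 1088, 1287 and 5841 in non-diabetic hearts, so that the arms were alike at day 56 and far apart at day 28. Each of these values is 1 pool of 3 rats.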
